A study of Mus musculus with 6 samples.

Results

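Integrins and laminins are the receptors and the ligands by which an epithelial cell holds on to its basement membrane. Their genes were taken as all rows whose mouse symbol is that of an integrin alpha subunit, an integrin beta subunit or a laminin chain. This gave 37 of 54418 rows, made up of 18 alpha and 8 beta integrin subunits and of 5 alpha, 3 beta and 3 gamma laminin chains. RNA had been sequenced from mouse organoids, which are self-organising epithelial cultures, of a line that the labels call AKP without spelling out its alleles. The 6 libraries fall into 2 groups of 3 by genotype, Control and GATA6KO, and both groups are AKP organoids. The series title concerns loss of the transcription factor GATA6 in metastasis of colorectal cancer, and the comparison asks which transcripts differ between the genotypes. The labels give no animal, age, clone or guide, and no statement that replicates are separate cultures, so a p-value speaks only of how far these libraries differ, and that may be technical variation.

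An integrin is a pair of 1 alpha and 1 beta subunit, and the pair decides which matrix protein is bound. Integrin alpha2beta1 binds collagen, alpha3beta1, alpha6beta1, alpha6beta4 and alpha7beta1 bind laminin, and the alphav pairs bind proteins with an arginine-glycine-aspartate (RGD) sequence. Alpha6beta4 is the receptor of hemidesmosomes, which tie keratin filaments to the basement membrane. A laminin is a trimer of an alpha, a beta and a gamma chain and is named by the numbers of its chains. Laminin-332 is typical of epithelia with hemidesmosomes, and laminin-511 and laminin-521 are main laminins of the intestinal basement membrane.

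The libraries held 22973245 to 31328415 estimated counts. Levels below are CPM (counts per 1000000 counts of a library) after TMM scaling, with the SD over 3 libraries, and log2FC is the fitted log2 fold change of GATA6KO against Control. Gata6 itself measured 25.3, 23.2 and 28.0 CPM in replicates 1 to 3 of Control and 14.3, 16.0 and 8.24 CPM in those of GATA6KO. Its transcript was thus lower in each GATA6KO library but present in all (log2FC -0.99, edgeR adjusted p = 0.0486). The call was lost without any 1 of the Control libraries (adjusted p = 0.128 to 0.181), with scaling to the library total alone (0.0573) and with the replicate number as a block (0.0915). In GATA6KO replicate 2 the median gene of chromosome 14 stood at -0.90 (log2) against Control, and no integrin or laminin gene lies there. Mitochondrial transcripts took 1.85% to 1.88% of counts in Control and 2.07% to 2.84% in GATA6KO. Over 10 markers of intestinal epithelium, Cdh1, Cdh17, Krt8 and Krt18 were lower and 0 higher, and the 10 summed to 8055 to 8646 CPM in Control and 5004 to 6208 CPM in GATA6KO. Whether these differences take part in the results below was not tested, and in bulk RNA fewer cells of a type and less RNA per cell cannot be told apart. The summed level of 9 fibroblast, 6 endothelial and 4 smooth muscle markers was at most 0.734, 0.667 and 0.534 CPM in any library. Lum, Cldn5 and Emcn had 0 counts throughout.

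Of the 37 genes, 19 had enough counts to be tested and 18 did not. Itga9 and Lama1 had 0 counts in all 6 libraries, and 11 of the 18 had at most 3 counts in any library. The highest count of an untested gene was 13, for Itgae. A gene passes the count filter if it reaches a minimum set by 10 counts in 3 libraries, so that a gene low in Control can pass through GATA6KO alone, as Itgb7 did among the 19. Among the 19 tested, edgeR's quasi-likelihood test called 1 higher and 5 lower at an adjusted p under 0.05. Over all 14714 genes tested it called 12.4%, with 6.92% higher and 5.47% lower. The 3 values of one group did not overlap those of the other for 9 of the 19, which is near the 40.8% of all genes tested. The median log2FC was -0.38 over the 19 and 0.02 over all genes tested.

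**Figure D1:**
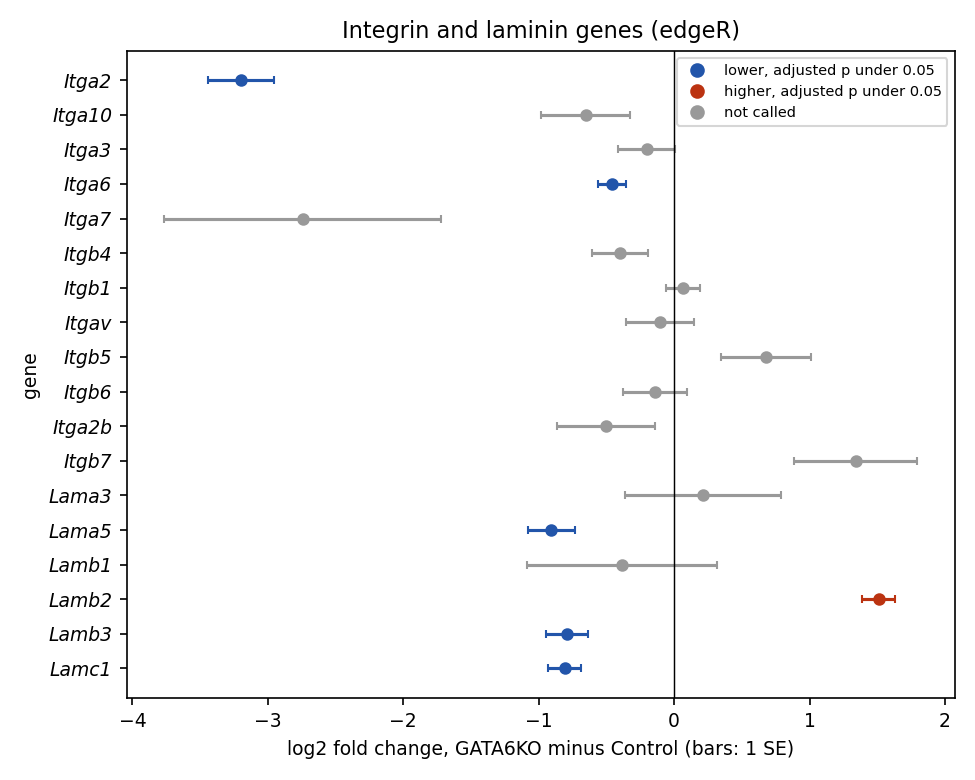
Log2 fold change (GATA6KO minus Control, horizontal axis) of 18 of the integrin and laminin genes tested, with bars of 1 SE and colours for the edgeR call. Itga2 at -3.20 and Lamb2 at 1.51 lie farthest from 0 among the called genes, and Itga7 at -2.74 has the widest bar (SE 1.02).

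Itga2 had the largest called decrease and Lamb2 the only increase, and both kept their call in every alternative analysis run here. Their upstream sequences are shown because the genes moved in opposite directions, together with that of Lama5, the most abundant laminin chain whose level fell. Sequences are from RefSeq on GRCm38.p6, 5′ to 3′ along the gene, end at its start site or at the first annotated exon, and have GC boxes (GGGCGG on either strand) in capitals.
Itga2, chr13:114932101-114932350, minus strand: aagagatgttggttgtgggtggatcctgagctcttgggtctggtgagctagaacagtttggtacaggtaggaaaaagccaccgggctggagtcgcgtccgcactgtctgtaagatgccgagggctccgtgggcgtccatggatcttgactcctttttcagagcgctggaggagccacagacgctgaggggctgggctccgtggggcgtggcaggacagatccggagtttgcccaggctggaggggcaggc
Lamb2, chr9:108479612-108479735, plus strand: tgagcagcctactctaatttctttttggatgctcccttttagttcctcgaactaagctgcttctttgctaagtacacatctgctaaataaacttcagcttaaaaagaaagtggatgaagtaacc
Lama5, chr2:180225860-180226109, minus strand: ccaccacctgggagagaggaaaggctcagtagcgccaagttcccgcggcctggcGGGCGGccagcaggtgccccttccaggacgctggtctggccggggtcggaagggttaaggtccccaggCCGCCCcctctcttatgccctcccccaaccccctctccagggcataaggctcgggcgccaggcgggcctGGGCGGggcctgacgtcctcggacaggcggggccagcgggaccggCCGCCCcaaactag

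RefSeq start sites were found for 13 of the 19 tested genes, at 16 windows of 250 bases before a start. These include 4 of the called genes, and the called genes Itga6 and Lamc1 have no window. The GATA factor motif was sought as AGATAA or AGATAG, or with a leading T as TGATAA or TGATAG, on both strands. They occur in 1 of the 16 windows (Itgb7) and in 26.5% of all 32851 windows of that length. GC boxes occur in 6 of the 16, at Itga3, Itgb1, Itgb5, Lama5 and Lamb1, and in 32.7% of all windows. Motifs of the factors AP-1 (TGANTCA) and TEAD (GGAATG) were sought too. The AP-1 motif occurs in 0 of the 16 and in 6.75% of all windows. The TEAD motif occurs in 3 of the 16, at Itga10, Itgb1 and Lamb3, and in 12.6% of all windows. The Lama5 window has 4 GC boxes and 72.4% G and C, and the Itga2 and Lamb2 windows have 0, with 60.8% and 43.6% G and C. No match says only that these letters are not in these windows.

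Among collagen-binding integrins, Itga2 fell 9.17 times, while its partner Itgb1 was not called. Itga2 (ENSMUSG00000015533, mm10 chromosome 13, 114833081 to 114932100, minus strand) encodes the alpha2 subunit, the main collagen receptor subunit of intestinal epithelium. It measured 94.3, 108 and 99.3 CPM in Control replicates 1 to 3 and 7.82, 15.05 and 10.04 CPM in GATA6KO replicates 1 to 3. The groups lay far apart, and each GATA6KO library kept 0.0777 to 0.1495 of the Control mean. The log2FC was -3.20 (SE 0.24, edgeR adjusted p = 0.00153), and it was called without each library in turn (adjusted p = 0.000942 to 0.0175). The other collagen-binding subunits were scarce. Itga10 stood at 1.07 ± 0.292 CPM (SD, n = 3) in Control and at 0.674 ± 0.0690 CPM (SD, n = 3) in GATA6KO, with overlapping groups (adjusted p = 0.219). An unnamed gene model, Gm42957, shares 33.5% of its exon bases on the same strand, so its counts are uncertain. Itga1 had at most 8 counts and Itga11 at most 2 in any library.

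Itgb1, the beta subunit shared by the collagen-binding and most laminin-binding pairs, measured 482, 502 and 531 CPM in Control and 462, 609.6 and 513 CPM in GATA6KO. The groups overlapped, with a log2FC of 0.06 (SE 0.12, adjusted p = 0.754). Per kilobase of exon, the scale used here to set genes beside each other, Itgb1 was the highest of all 37 genes in both groups. It stood at 124 ± 6.05 CPM per kilobase in Control and at 129 ± 18.4 in GATA6KO. That length is the union of all annotated exons, not of the transcripts expressed, so an order between genes can depend on it. In CPM without length Itga6 was above Itgb1, at 911 against 505 in Control and 661 against 528 in GATA6KO.

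**Figure D2:**
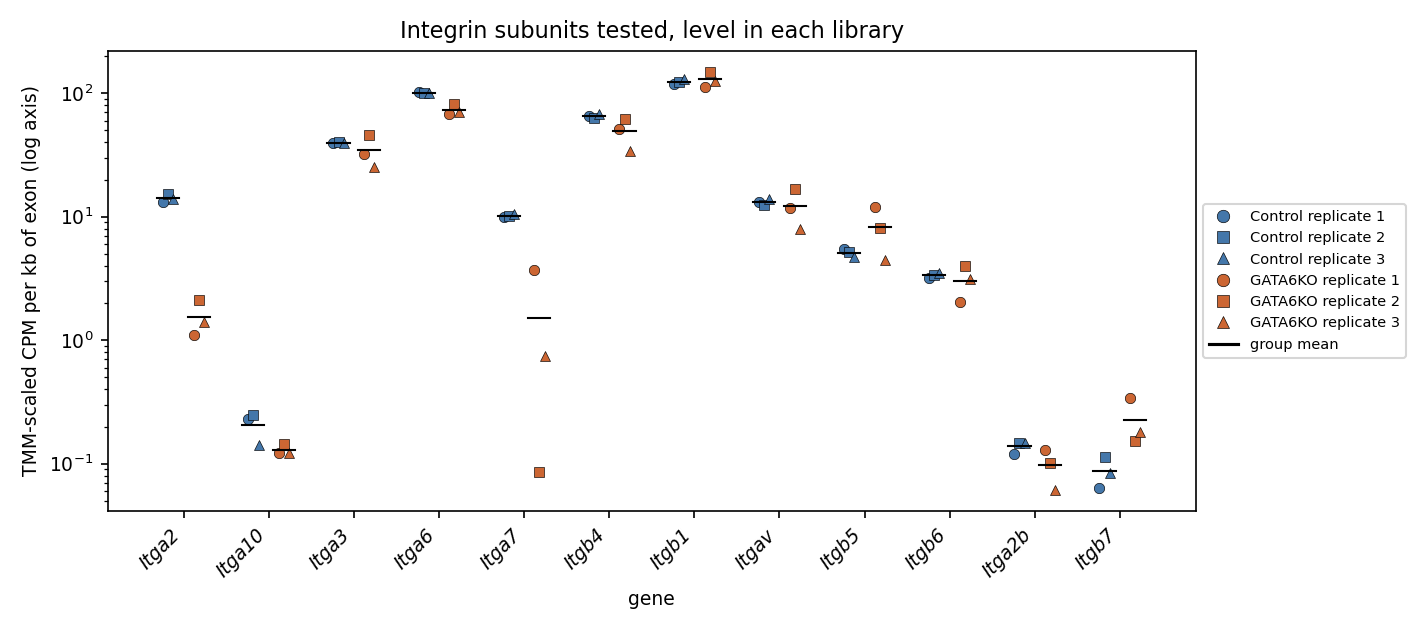
TMM-scaled CPM per kilobase of exon (log axis) of the 12 integrin subunits tested, in order of the ligand they bind, with 1 symbol per library and a line at each group mean. Itga2 goes from 14.1 to 1.54 CPM per kilobase, and the GATA6KO libraries of Itga7 are spread from 3.74 to 0.0851.

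The laminin-binding subunits Itga6 and Itga3 were the most abundant alpha integrins per kilobase of exon, and Itga6 fell to 0.726 of Control. Itga6 (ENSMUSG00000027111, mm10 chromosome 2, 71745616 to 71858416, plus strand), whose product pairs with beta4 in hemidesmosomes and with beta1 elsewhere, measured 925, 906 and 901 CPM in Control and 609.7, 739 and 636 CPM in GATA6KO. Every GATA6KO library lay below every Control library. The log2FC was -0.46 (SE 0.10, edgeR adjusted p = 0.0353). Its call was lost without any 1 of the Control libraries (adjusted p = 0.149 to 0.152), without GATA6KO replicate 3 (adjusted p = 0.0659) and with scaling to the library total alone (adjusted p = 0.0657). It was also lost with the replicate number as a block (adjusted p = 0.101).

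Itgb4, the partner of alpha6 in hemidesmosomes, measured 455, 439 and 474 CPM in Control and 358, 437 and 241 CPM in GATA6KO. The groups just missed each other, with GATA6KO replicate 2 close to Control replicate 2. The difference was not called (log2FC -0.40, SE 0.21, adjusted p = 0.233).

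Itga3, the alpha subunit of the other main epithelial laminin receptor, measured 224, 229 and 228 CPM in Control and 184, 264 and 143 CPM in GATA6KO. One GATA6KO library was above and the other two below Control, and the gene was not called (log2FC -0.20, SE 0.21, adjusted p = 0.549).

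Itga7 had the second largest fold change of the 19 and was not called, and its highest GATA6KO library stood 43.9 times above its lowest. Itga7 (ENSMUSG00000025348, chromosome 10, 128933818 to 128958282, plus strand) encodes a laminin receptor subunit best known from muscle. Control held 1839, 2372 and 2537 counts of it, and replicates 1 to 3 of GATA6KO held 904, 21 and 182. In CPM these were 80.6, 82.2 and 84.6 against 30.2, 0.689 and 6.07. All GATA6KO libraries were lower, keeping 0.367, 0.00835 and 0.0736 of the Control mean. The log2FC was -2.74 (SE 1.02, adjusted p = 0.124), and without GATA6KO replicate 1 it was -4.61 and called (adjusted p = 0.0139). It was not called without GATA6KO replicate 2 (-2.18, adjusted p = 0.0669) or 3 (-2.42, 0.244), nor by DESeq2 (0.0893).

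Of the RGD-binding integrins 4 were tested and edgeR called 0, with 0 at an unadjusted p under 0.05 and 0 called by DESeq2. Itgav, the alpha subunit shared by the pairs with beta5 and beta6, measured 141, 133 and 149 CPM in Control and 126, 181 and 86.0 CPM in GATA6KO (log2FC -0.10, adjusted p = 0.805). Itgb5, whose pair with alphav binds vitronectin, measured 19.5, 18.4 and 16.7 CPM in Control and 42.7, 28.9 and 15.8 CPM in GATA6KO. GATA6KO replicates 1 and 2 were above every Control library and replicate 3 below them all. The log2FC of Itgb5 was 0.68 (SE 0.33, adjusted p = 0.213), and without GATA6KO replicate 3 it was 0.98 and called (adjusted p = 0.0319). It was not called without GATA6KO replicate 1 (0.30, adjusted p = 0.432) or 2 (0.68, 0.277). Itgb6, whose pair with alphav can activate latent TGF-beta, measured 22.6, 24.0 and 24.9 CPM in Control and 14.5, 28.2 and 22.2 CPM in GATA6KO (log2FC -0.14, adjusted p = 0.714). Its groups overlapped. Itga2b, the platelet subunit, stood at 0.752 ± 0.0818 CPM (SD, n = 3) in Control and at 0.531 ± 0.186 CPM (SD, n = 3) in GATA6KO (adjusted p = 0.379). The 3 platelet markers summed to 0.0876 to 0.200 CPM in Control and 0.234 to 3.34 CPM in GATA6KO, with Gp9 at 0 throughout and 102 counts of Ppbp in GATA6KO replicate 2, and their part in the Itga2b value was not tested. Itga5, a fibronectin receptor subunit, reached at most 9 counts in a library, and Itga8, Itgb3 and Itgb8 had at most 3, 1 and 4.

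Subunits of leukocytes and the alpha4 and alpha9 subunits were at or near 0. Of these 9 genes 1 could be tested, and edgeR called 0 (1 at an unadjusted p under 0.05, 0 by DESeq2). Itgb7, a partner of alpha4 and alphaE on lymphocytes, had 4, 9 and 7 counts in Control and 28, 13 and 15 counts in GATA6KO. Every GATA6KO library was higher, but the gene was not called (log2FC 1.34, SE 0.45, adjusted p = 0.0996). Itgae, the alphaE subunit, had 3, 2 and 4 counts in Control and 13, 11 and 2 in GATA6KO. Itgb2, the beta subunit common to the leukocyte pairs, had at most 3 counts. The 9 leukocyte markers summed to 11.2 to 14.5 CPM in Control and 3.41 to 5.82 CPM in GATA6KO, with Ptprc at 1 to 11 counts and Tyrobp at 0. Most of that sum was the lysosomal gene Cd68, which was lower in GATA6KO (edgeR adjusted p = 0.0190), and its part in the leukocyte integrin values was not tested.

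Among laminin chains, Lama5, Lamb3 and Lamc1 fell to 0.533, 0.579 and 0.571 of Control, and Lamb2 rose 2.85 times. Lamb2 (ENSMUSG00000052911, chromosome 9, 108479736 to 108490530, plus strand) encodes the beta2 chain, which replaces beta1 in laminin-521. It measured 12.8, 11.4 and 12.2 CPM in Control and 35.2, 37.7 and 30.9 CPM in GATA6KO. The GATA6KO libraries lay close together and far above Control. The log2FC was 1.51 (SE 0.12, edgeR adjusted p = 0.00194), and it was called without each library in turn (adjusted p = 0.00235 to 0.0222).

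Lama5 (ENSMUSG00000015647, chromosome 2, 180176373 to 180225859, minus strand) encodes the alpha5 chain of laminin-511 and laminin-521. It measured 469.5, 422 and 495 CPM in Control and 263, 289.5 and 187 CPM in GATA6KO, with no overlap. The log2FC was -0.91 (SE 0.17, edgeR adjusted p = 0.0215).

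Lamc1 (ENSMUSG00000026478, chromosome 1, 153218922 to 153332786, minus strand), the gamma chain of most laminins, measured 162, 158 and 159 CPM in Control and 95.6, 102 and 75.8 CPM in GATA6KO. The Control values were almost identical, and the GATA6KO values were all lower (log2FC -0.81, SE 0.12, adjusted p = 0.0110).

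Lamb3 (ENSMUSG00000026639, chromosome 1, 193207699 to 193343878, plus strand), the beta chain of laminin-332, measured 238, 234 and 272 CPM in Control and 159.7, 158 and 113 CPM in GATA6KO. Again the groups did not overlap (log2FC -0.79, SE 0.15, adjusted p = 0.0234). The calls of Lama5, Lamc1 and Lamb3 were lost without any 1 Control library, at adjusted p of 0.0739 to 0.105, 0.0575 to 0.0657 and 0.0815 to 0.109, while their log2FCs stayed between -1.04 and -0.64 without any 1 of the 6 libraries. With the replicate number as a block, Lama5 and Lamb3 lost their call (adjusted p = 0.0542 and 0.0617) and Lamc1 kept it (0.0305).

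Lama3, the alpha3 chain, was not called and measured 56.1, 56.3 and 60.7 CPM in Control and 51.8, 129 and 20.05 CPM in GATA6KO. It stood at 2.23 times the Control mean in GATA6KO replicate 2 and at 0.347 of it in replicate 3, with a log2FC of 0.21 (SE 0.58, adjusted p = 0.830). Without replicate 2 the log2FC was -0.68 (adjusted p = 0.261), without replicate 3 it was 0.65 (0.286) and without replicate 1 it was 0.37 (0.721). Its direction thus depended on the library left out. Lamb1, the beta chain of laminin-511, was scarce and varied too, at 5.43, 5.55 and 5.14 CPM in Control and 8.19, 0.787 and 3.37 CPM in GATA6KO (log2FC -0.38, SE 0.70, adjusted p = 0.742). Lama1, Lama2, Lama4 and Lamc3 had at most 2 counts in any library.

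**Figure D3:**
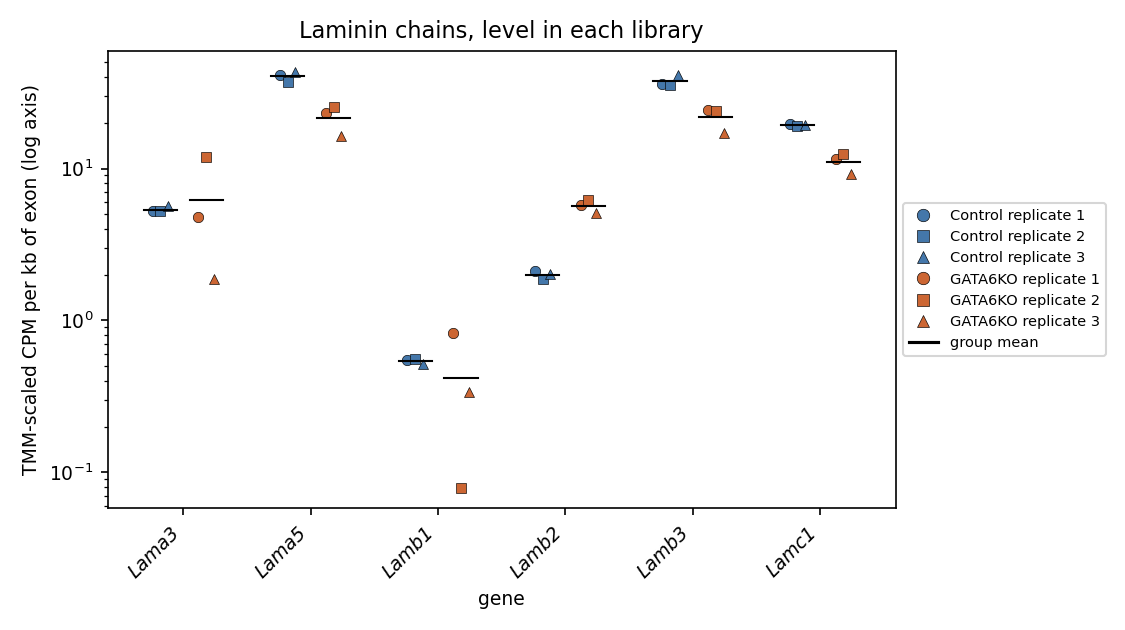
TMM-scaled CPM per kilobase of exon (log axis) of 6 laminin chains tested, with 1 symbol per library and a line at each group mean. Lamb2 is higher in each GATA6KO library, Lama5, Lamb3 and Lamc1 are lower in each, and Lama3 and Lamb1 have GATA6KO libraries on both sides of Control.

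Set beside each other per kilobase of exon, the transcripts of a trimer were far from equal. Of the laminin-332 chains described, Lama3 was lower than Lamb3 in all 6 libraries, at 5.37 ± 0.245 CPM per kilobase in Control and 6.23 ± 5.21 in GATA6KO (SD over 3 libraries). Lamb3 stood at 37.5 ± 3.11 CPM per kilobase in Control and at 21.7 ± 4.03 in GATA6KO. For laminin-521, Lamb2 was the lowest chain in every library, at 1.998 ± 0.118 CPM per kilobase in Control and 5.69 ± 0.564 in GATA6KO. Lama5 and Lamc1 went from 40.6 ± 3.27 to 21.6 ± 4.69 and from 19.3 ± 0.237 to 11.03 ± 1.66 CPM per kilobase. For laminin-511 the lowest chain was Lamb1 throughout, at 0.542 ± 0.0214 and 0.415 ± 0.379 CPM per kilobase. These are transcript levels and say nothing of the trimers secreted.

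Within the beta chains the balance moved from Lamb3 towards Lamb2. Lamb2 held 5.46%, 4.95% and 4.60% of the summed per-kilobase level of the 3 beta chains in Control and 18.8%, 20.5% and 22.6% in GATA6KO. Lamb3 held 93.6% ± 0.55 and 77.9% ± 1.76. The groups did not overlap for either share, and an exact permutation test of 3 against 3 libraries cannot go below p = 0.1. Lamb2 was already higher and Lamb3 lower in every GATA6KO library, so the separation of their shares and ratio largely restates those levels and adds no support. Both are parts of a fixed total, so the shares are not separate results. The ratio of Lamb3 to Lamb2 per kilobase went from 17.0 to 20.5 in Control libraries to 3.35 to 4.17 in GATA6KO libraries.

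Among the 18 alpha integrins, Itga6 held 56.5% ± 0.74 of the summed per-kilobase level in Control and 59.9% ± 5.76 in GATA6KO, with overlap. The share of Itga2 went from 7.90% ± 0.55 to 1.23% ± 0.26 and that of Itga7 from 5.71% ± 0.14 to 1.32% ± 1.66. Itga3 went from 22.2% ± 0.23 to 27.5% ± 3.81 without a called change in its own level. Among the 8 beta subunits, Itgb4 went from 33.0% ± 0.81 to 25.6% ± 4.49 and Itgb1 from 62.7% ± 0.94 to 68.3% ± 5.96. Shares add up to a fixed total, so a loss of one gene raises the others. Summed CPM over the 26 integrin genes was 2445 to 2511 in Control and 1675 to 2306 in GATA6KO, and over the 11 laminin genes 1221 to 1359 and 627 to 1173.

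**Figure D4:**
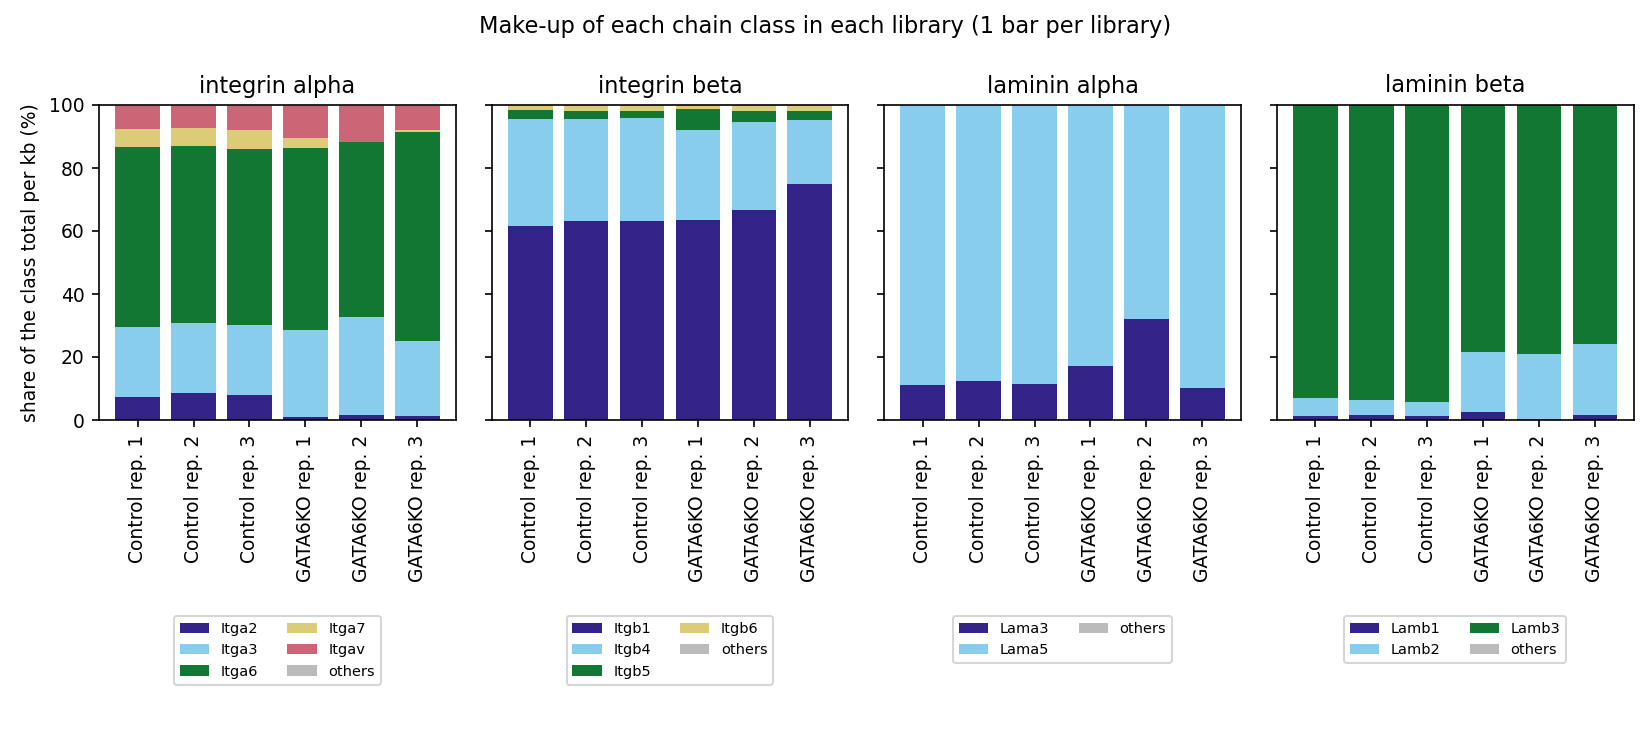
Share of each chain in the summed CPM per kilobase of its class (stacked bars, %, 1 bar per library), for integrin alpha and beta subunits and laminin alpha and beta chains, with chains under 1% in every library joined as others. The Lamb2 band widens from 5.01% ± 0.43 to 20.7% ± 1.91, and the Itga2 band narrows from 7.90% ± 0.55 to 1.23% ± 0.26.

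The 19 tested genes varied more between GATA6KO libraries than between Control libraries. The median SD on the log2 scale was 0.0826 in Control and 0.473 in GATA6KO, beside 0.0949 and 0.279 over all genes tested. In GATA6KO 8 of the 19 had a highest value over 2 times the lowest, beside 25.4% of all genes tested, and in Control 0 of the 19 did, beside 6.77%. Replicate 2 was the highest GATA6KO library for 13 of the 19 and replicate 3 for 0, where over all genes tested they were highest for 32.4% and 30.1%. Replicate 3 was the lowest GATA6KO library for 12 of the 19, beside 31.3% of all genes tested. Replicate 2 was the lowest for Itga7, Lamb1 and Itgb7.

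**Figure D5:**
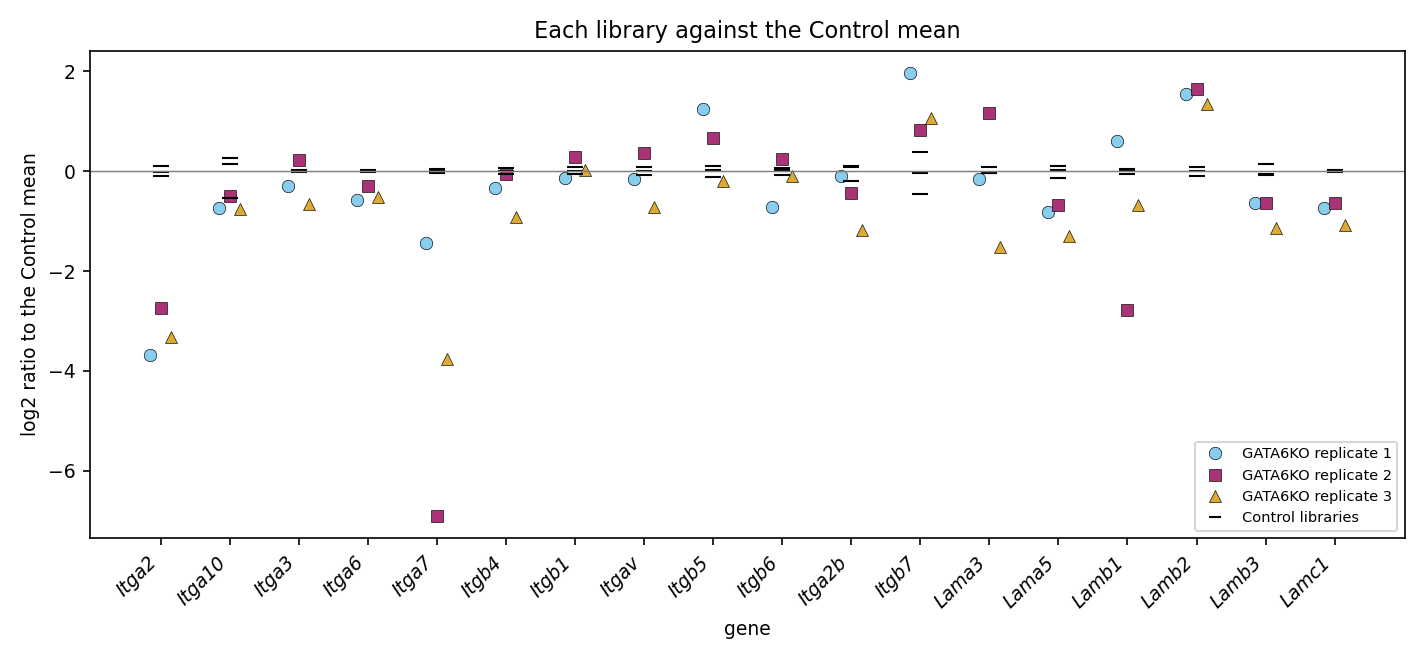
Log2 ratio of each GATA6KO library (coloured symbols) to the Control mean for 18 of the genes tested, with the Control libraries as black dashes. The symbols lie close together for Itga6 and Lamb2, and far apart for Itga7, Lama3 and Lamb1.

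Other genes of integrin function were read from lists chosen with earlier results of these data known. Of 26 tested genes of integrin activation and focal adhesions, 3 were higher and 2 lower (median log2FC -0.07). Over all genes tested, 6.92% were higher and 5.47% lower, and the counts of each list are to be read beside these shares. Fermt1, an epithelial kindlin that activates integrins by their beta tails, measured 291, 275 and 273 CPM in Control and 415, 462 and 395 CPM in GATA6KO, higher in each library (log2FC 0.60, SE 0.09, edgeR adjusted p = 0.0121). Its paralog Fermt2 rose from 0.373 ± 0.0570 to 1.93 ± 1.05 CPM (adjusted p = 0.0372; 0.0794 without GATA6KO replicate 3). Fermt2 had 10 counts in each Control library and passed the count filter only through GATA6KO, where it is high, so its place among the higher genes gives no support. Tln2, a talin that links beta tails to actin, fell from 137 ± 4.05 to 70.9 ± 25.3 CPM (adjusted p = 0.0461; lost with no filter at 0.0783 and without GATA6KO replicate 2 or 3 at 0.0539 and 0.108). Vcl, which binds talin, fell from 177 ± 6.66 to 118 ± 19.02 CPM (adjusted p = 0.0360). Tns3, a tensin named after its value was seen as the fifth called gene of the list, rose from 136 ± 7.95 to 191 ± 10.4 CPM (adjusted p = 0.0185). Each of these 5 calls was lost without any 1 Control library (adjusted p = 0.0629 to 0.163) and with the replicate number as a block (0.0501 to 0.0685). Fermt2 and Vcl lie on chromosome 14, where GATA6KO replicate 2 was low, with 22 counts against 73 and 79 for Fermt2 and 96.3 CPM against 128 and 130.01 CPM for Vcl. Without replicate 2 both were called (adjusted p = 0.00385 and 0.0188).

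Of 4 tested partners of the hemidesmosome 1 fell, beside 5.47% of all genes tested. Dst, whose epithelial product ties keratins to alpha6beta4, measured 118, 127 and 135 CPM in Control and 41.4, 54.8 and 21.1 CPM in GATA6KO, with a wide gap (log2FC -1.70, SE 0.32, edgeR adjusted p = 0.0206; 0.0760 to 0.0964 without a Control library, 0.0757 with no filter). Dst also encodes neural and muscle forms that a gene-level count does not separate. Plec, another linker to keratins, chosen here after its values were seen, measured 536, 533 and 525 CPM in Control and 346, 535 and 214 CPM in GATA6KO and was not called (log2FC -0.54, adjusted p = 0.263).

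Of 9 tested basement membrane partners of laminin, 1 was higher and 2 were lower, beside 6.92% and 5.47% of all genes tested. Nid2, which links laminin to collagen IV, went from 30, 47 and 34 counts to 0, 0 and 4 counts in replicates 1 to 3 (adjusted p = 0.0187) and lies on chromosome 14. Its fitted fold change depends on the prior count and is not given. Ntn4, a netrin that binds the short arms of laminin chains, had 4, 13 and 11 counts in Control and 104, 109 and 20 in GATA6KO (log2FC 2.92, adjusted p = 0.0439). Nid2 passed the count filter only through Control and Ntn4 only through GATA6KO, the group where each is high, so their calls give no support to the list's counts. Col4a2, a collagen IV chain, fell from 246 ± 17.2 to 168 ± 27.4 CPM (log2FC -0.55, adjusted p = 0.0453). Each of these 3 calls was lost without any 1 Control library (adjusted p = 0.0817 to 0.168) and with the replicate number as a block (0.0566 to 0.0947). Those of Ntn4 and Col4a2 were also lost without GATA6KO replicate 2 (adjusted p = 0.0706 and 0.0539), that of Ntn4 without replicate 1 (0.0575) and that of Col4a2 without replicate 3 (0.0913).

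Among RGD ligands and genes of latent TGF-beta, 2 of 11 tested rose and 0 fell, with a median log2FC of -0.33 over the 11. Of all genes tested, 6.92% rose and 5.47% fell. Fn1, fibronectin, measured 6.40, 9.71 and 7.37 CPM in Control and 68.8, 203 and 46.0 CPM in GATA6KO. All GATA6KO libraries were far above Control, and replicate 2 was the highest (log2FC 3.75, SE 0.59, edgeR adjusted p = 0.0124). Thbs1, thrombospondin 1, measured 25.1, 20.2 and 15.5 CPM in Control and 112, 421 and 57.1 CPM in GATA6KO, in the same order (log2FC 3.28, SE 0.74, adjusted p = 0.0353). Both calls were lost without any 1 Control library (adjusted p = 0.0597 to 0.0808 and 0.120 to 0.161) and with no filter on low counts (adjusted p = 0.0780 and 0.170). With the replicate number as a block, Thbs1 lost its call (adjusted p = 0.0625) and Fn1 kept it (0.0155). Itga5, a fibronectin receptor subunit, stayed at 3 to 9 counts in a library. Itgav, whose pairs bind RGD proteins, stood at 86.0 to 181 CPM over all libraries.

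Other receptors for laminin and matrix had 0 called of 7 tested by edgeR, with a median log2FC of -0.08. An unadjusted p under 0.05 was reached by 3 of the 7, and DESeq2 called 2, Rpsa and Sdc1. The third of the 3 was Cd44, a hyaluronan receptor named after its values were seen, at 263, 257 and 258 CPM in Control and 305, 556 and 303 CPM in GATA6KO, higher in each library but not called (log2FC 0.58, adjusted p = 0.156). Highest in CPM in Control were Rpsa, a ribosomal protein also described as a laminin receptor, at 2035 and 1520.4 CPM (adjusted p = 0.109), and the syndecan Sdc1, at 435 and 322 CPM (adjusted p = 0.0668; called without GATA6KO replicate 2, adjusted p = 0.0207). Leaving out any other library gave no call for Sdc1. Of ligands of leukocyte integrins 2 were tested and 0 called by edgeR, with 2 at an unadjusted p under 0.05 and 2 called by DESeq2. Icam1 measured 12.4 and 20.7 CPM (adjusted p = 0.0929) and F11r 259 and 199.9 CPM (adjusted p = 0.0592), and without GATA6KO replicate 1 both were called (adjusted p = 0.00485 and 0.0283). Leaving out any other library called neither.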

How the data were processed

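Gene-level RNA-seq values of 6 libraries were used, 3 Control and 3 GATA6KO. The deposited table holds estimated counts per Ensembl gene, and the submitters' processing notes name Salmon 1.3.0 and mm10. How strand was treated is not given in the sources used here. Symbols came from the Ensembl IDs, of which 252 matched no gene in the annotation used, GENCODE M21. The values were whole numbers as deposited, so no rounding was needed, and were fitted with edgeR 4.0.16 (R 4.3.3), with filterByExpr, TMM scaling and a robust quasi-likelihood test. Benjamini-Hochberg adjustment ran over all 14714 genes tested, at a threshold of 0.05, so every adjusted p above is of that kind. SE is the absolute log2FC over the root of F. Levels between genes were compared per kilobase of union exon. Members and lists were chosen with earlier results of these data known. Named were all members, with values per library for those called or at 20 CPM or more in a group. From each list up to 4 called genes with the largest log2FC and at least 1 CPM were named, or the 2 most abundant where 0 were called. Low members named with their highest count, Tns3, Plec, Col17a1, Krt5 and Cd44 were added after values were seen. Alternatives were RLE and library total scaling, DESeq2 1.42.0, no filter, a replicate block and leaving out each library. On simulated data with 200 of 14714 genes changed, the fit recovered 8%, 40%, 68% and 86% at folds of 1.5, 2, 4 and 8 (50 genes each), with 6 false among 107 calls. The simulation gave each gene the same spread in both groups. In the real data GATA6KO libraries varied more than Control libraries, so these rates may not carry over. One tested gene counts in the totals but is not reported here.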

Additional observations from a re-analysis of the deposited data

How the results depend on the processing

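The 6 called genes kept their direction in every alternative run, and Itga2 and Lamb2 kept their call in each. Leaving out 1 library gave 1 to 2 higher and 1 to 6 lower among the 19, and 202 to 2235 higher and 130 to 2125 lower among all genes tested, with the fewest without a Control library. DESeq2 called 1709 genes higher and 1529 lower, and the same 6 of the 19. Deviations of same-numbered libraries showed no strong correlation (r = -0.0103, 0.0744 and -0.0921), and those of differently numbered libraries ran from -0.148 to 0.156. With 3 libraries in a group, these values cannot settle whether replicates were paired. With the replicate block, 480 genes were higher and 347 lower, and 1 of the 19 was higher and 2 were lower. Itga6, Lama5 and Lamb3 lost their call there. Scaling to the library total alone gave 1302 higher and 680 lower, so that 65.7% of calls were higher in place of 55.8%, and it moved the median log2FC of all genes from 0.0185 to 0.0917. Among the 19, sign changes occurred only in genes not called. The cause of these shifts was not tested. Itgb7 had 4 to 28 counts in a library, and whether depth or the spread between libraries limits its call was not tested.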
